A study of Homo sapiens with 2 samples.

Results

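Genes for 10 transcription factors of the AP-1, immediate early and MYC groups were followed in MIA PaCa-2, a line grown from a human pancreatic carcinoma and long established in culture. The members were JUN, JUNB, JUND, FOS, FOSL1, FOSL2, EGR1, ATF3, KLF4 and MYC, taken by symbol from the deposited gene table, where all 10 were found, 1 row each, among 58698 genes. The cells carried either a guide against TPST2 (sgTPST2, labelled as a TPST2 knockdown) or a guide against GFP, a jellyfish gene that human cells lack (sgGFP, labelled as wild type). TPST2 encodes a Golgi enzyme that adds sulfate to tyrosines of secreted and membrane proteins. Total RNA of 1 library per group was sequenced, so the spread between replicates is unknown for every difference below, and no test was made. Whether a culture was 1 clone or a pool, and whether the guide cut or repressed its target, is not stated in the labels. The unit is taken to be FPKM, a count of fragments divided by transcript length and library size. Differences are given as log2((sgTPST2 + 1)/(sgGFP + 1)). Adding 1 compresses the differences of weakly expressed genes.

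AP-1 is a family of dimers of basic leucine zipper proteins. JUN proteins pair with each other or with FOS proteins, whereas FOS proteins need a JUN partner to bind DNA. Growth factor and RAS-ERK signalling switches on FOS and EGR1 within minutes through SRF and ETS-type factors on their promoters, and JNK acts on JUN. FOSL1, FOSL2 and JUND are expressed later or more steadily than FOS, and FOSL1 is a known effector of RAS in pancreatic cancer. MYC is the main growth-promoting factor downstream of the same pathway.

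Judged by the steps between low values, a level of 1 FPKM rested on some 47.8 fragments for each kb in sgTPST2 and 42.0 in sgGFP. The Poisson intervals of the 2 libraries, which hold counting error alone, were separate for 9 of the 10 members, and at this depth also for 44.9% of the 13420 genes with at least 1 FPKM in 1 library, so separate intervals do not set a gene apart. EGR1, 1 of the 9, was under 1 FPKM in both libraries and is not among the 13420. TPST2 itself was at 1.92 FPKM in sgTPST2 and 8.46 FPKM in sgGFP, with q = 0.245 in the authors' deposited table. Of the 5 epithelial markers, the keratins KRT8, KRT18 and KRT19 were expressed, though far lower in sgTPST2. The 5 summed to 140 FPKM in sgTPST2, against 1282 FPKM in sgGFP. EPCAM is listed at 0 in both libraries, and CDH1 at 0.0524 FPKM in sgTPST2 and 0 in sgGFP. The list is therefore split, and the keratins alone do not establish an epithelial state. The 5 leukocyte markers summed to 1.76 FPKM in sgTPST2 and 2.85 FPKM in sgGFP, nearly all of it CD14 at 1.76 FPKM in sgTPST2 and 2.67 FPKM in sgGFP, with CD3E listed at 0 in both. The 4 endothelial markers summed to 0.440 and 3.38 FPKM in sgTPST2 and sgGFP, with PECAM1 at 0 in both and CDH5 at 0.277 FPKM in sgTPST2, against 2.93 FPKM in sgGFP, and all 6 acinar and islet markers are listed at 0. The 6 fibroblast markers summed to 15.6 FPKM in sgTPST2 and 47.6 FPKM in sgGFP, with DCN and LUM at 0. Of these, COL1A2 stood at 3.47 FPKM in sgTPST2, against 29.05 FPKM in sgGFP, and COL3A1 at 11.9 FPKM in sgTPST2, against 18.5 FPKM in sgGFP. Their part in the results below was not tested.

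Of the 10 members, 7 were lower and 3 higher in sgTPST2, counting any difference. At least 1 FPKM was reached in 1 library by 9 of them, and of these 4 were at least 1.5-fold lower (JUN, KLF4, FOS and ATF3) and 0 at least 1.5-fold higher. Over all 13420 genes that met the same minimum, 6.94% were at least 1.5-fold lower and 4.41% at least 1.5-fold higher. At 2-fold on the same scale, 2 of the 9 were lower (JUN and KLF4) and 0 higher, next to 2.93% and 1.61% of all genes. The plain ratios of FOS (0.379) and ATF3 (0.455), with nothing added, are past 2-fold too. The members were chosen with earlier results of these data known, so these counts describe them and are not a test. The median difference of the 9 members was -0.58, and that of all genes 0.00. The median of the 9 comes from FOSL1, which lay just inside 1.5-fold with 1 FPKM added and past it by its plain ratio of 0.600. With a minimum of 5 FPKM, which leaves out FOS, FOSL1 and ATF3, the members' median was -0.09. EGR1 was under 1 FPKM in both libraries and stayed outside these counts. In the authors' deposited table none of the 10 has a q under 0.05, a limit that 0.517% of the genes tested there pass. The smallest q among the members in that table is 0.222, for JUN, followed by 0.576 for KLF4, and the other 8 members have q = 0.9997. In RNA from whole cultures, fewer cells that express a gene and less RNA per cell cannot be told apart.

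**Figure D1:**
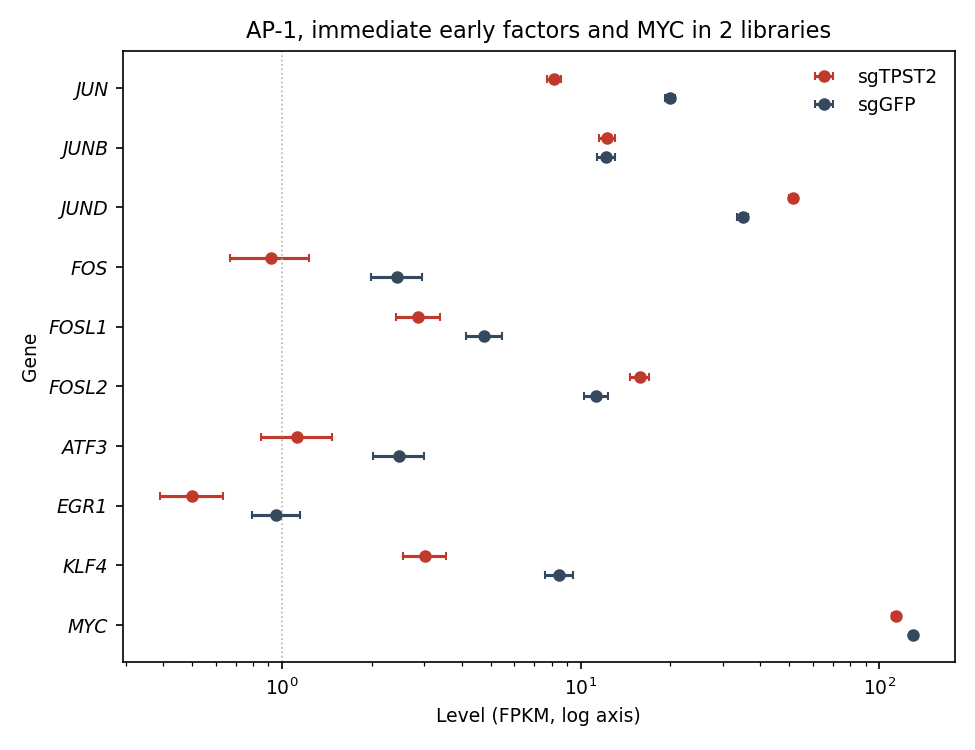
Level of each member in FPKM on a log axis, with sgTPST2 (red) drawn above sgGFP (blue). Each point is 1 library, bars are Poisson 95% intervals of counting error only, and the dotted line marks 1 FPKM. JUN, FOS, FOSL1, ATF3, EGR1, KLF4 and MYC lie to the left in sgTPST2, JUND and FOSL2 to the right, and the bars overlap for JUNB alone.

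Among the JUN proteins, the difference depended on the gene. JUN encodes c-Jun, the growth-promoting member that is required for many RAS effects. It stood at 8.17 FPKM in sgTPST2, against 19.9 FPKM in sgGFP, a log2 difference of -1.19. The ratio of levels was 0.410, with a 95% counting interval of 0.384 to 0.438 (exact binomial, on about 1313 and 2809 fragments in sgTPST2 and sgGFP). Of the 13420 genes, 2.11% were as low as JUN or lower on the log2 scale. JUNB encodes a member that can oppose JUN in proliferation. It stood at 12.3 FPKM in sgTPST2 and 12.1 FPKM in sgGFP, with a ratio of 1.01 and an interval of 0.918 to 1.11, so a difference was not detectable at this depth. JUND encodes the member that is expressed most steadily and that can slow growth in fibroblasts. It stood at 51.5 FPKM in sgTPST2, against 34.9 FPKM in sgGFP, a ratio of 1.47 with an interval of 1.40 to 1.55. Its log2 difference was 0.55, just under 1.5-fold, and 4.96% of all genes were as high or higher. JUN was thus lower, JUND higher and JUNB level in the same comparison.

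The start regions of the 3 JUN genes are shown because the genes differ in direction. All 3 hold TGACG, the first 5 bases of the CREB motif, at 123 bases before the start in JUN, 137 in JUNB and 200 in JUND, and the JUN stretch printed is too short to include it. The sequences are RefSeq's (GRCh38.p14), read 5′ to 3′ on the strand of the gene, and capitals mark 1 motif chosen for each gene. The JUN stretch (chr1:58784096-58784125, minus strand, 78 to 49 bases before the RefSeq start) carries TGACATCA, a known variant of the AP-1 motif through which c-Jun acts on its own gene. It lies within the longer GENCODE transcript of JUN, which starts further upstream. The JUNB stretch (chr19:12791336-12791435, plus strand) carries TGACG. The JUND stretch (chr19:18281753-18281852, minus strand) carries the whole palindrome TGACGTCA.
JUN: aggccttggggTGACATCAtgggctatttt
JUNB: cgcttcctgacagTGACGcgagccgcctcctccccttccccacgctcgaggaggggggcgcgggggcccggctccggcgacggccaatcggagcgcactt
JUND: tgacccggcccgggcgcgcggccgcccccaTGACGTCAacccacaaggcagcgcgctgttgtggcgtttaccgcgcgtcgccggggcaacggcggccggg

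The FOS proteins were arranged alike. FOS encodes c-Fos, the classic immediate early protein. It was at 0.918 FPKM in sgTPST2, against 2.42 FPKM in sgGFP, a log2 difference of -0.84 and a ratio of 0.379 (interval 0.260 to 0.544, from about 44 and 102 fragments per kb in sgTPST2 and sgGFP). This is the thinnest count among the members that met the minimum. FOSL1 encodes FRA-1, which ERK signalling stabilises. It was at 2.86 FPKM in sgTPST2, against 4.76 FPKM in sgGFP, a log2 difference of -0.58 and a ratio of 0.600 (interval 0.480 to 0.751). FOSL2 encodes FRA-2 and went the other way, with 15.8 FPKM in sgTPST2 and 11.3 FPKM in sgGFP, a log2 difference of 0.45 and a ratio of 1.40 (interval 1.25 to 1.57). FOSB, the remaining FOS gene and not a member, was under 1 FPKM in both libraries, at 0.244 in sgTPST2 and 0.541 in sgGFP. The 3 FOS genes other than FOSL2 were therefore all lower in sgTPST2, and FOSL2 alone was higher.

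The FOS stretch shown (chr14:75278674-75278773, plus strand) runs from 154 to 55 bases before the RefSeq start and carries TGACG, in capitals, 64 bases before it. The FOS promoter is known to respond to cAMP through this kind of motif. The serum response element for which FOS is known lies further upstream than the 250 bases searched here. FOSL2 holds the AP-1 motif TGACTCA at base 5 of its RefSeq transcript.
FOS: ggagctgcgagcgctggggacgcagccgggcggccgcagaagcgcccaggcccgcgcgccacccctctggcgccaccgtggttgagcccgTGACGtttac

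Summed over each family, the level of AP-1 transcripts differed little while the make-up differed more. The 3 JUN genes summed to 71.9 FPKM in sgTPST2 and 66.9 FPKM in sgGFP. JUN made up 11.4% of that sum in sgTPST2, against 29.7% in sgGFP, and JUND 71.6% in sgTPST2, against 52.1% in sgGFP. JUNB kept a similar share, with 17.0% in sgTPST2 and 18.1% in sgGFP. The 4 FOS genes, FOSB included, summed to 19.8 FPKM in sgTPST2 and 19.0 FPKM in sgGFP. FOSL2 made up 79.7% of the FOS sum in sgTPST2, against 59.3% in sgGFP. FOSL1 made up 14.4% in sgTPST2, against 25.1% in sgGFP, and FOS 4.64% in sgTPST2, against 12.8% in sgGFP. In both families the most abundant gene of the control held a larger share in sgTPST2. These are shares of transcript levels per length. Proteins, dimers and their phosphorylation were not measured.

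**Figure D2:**
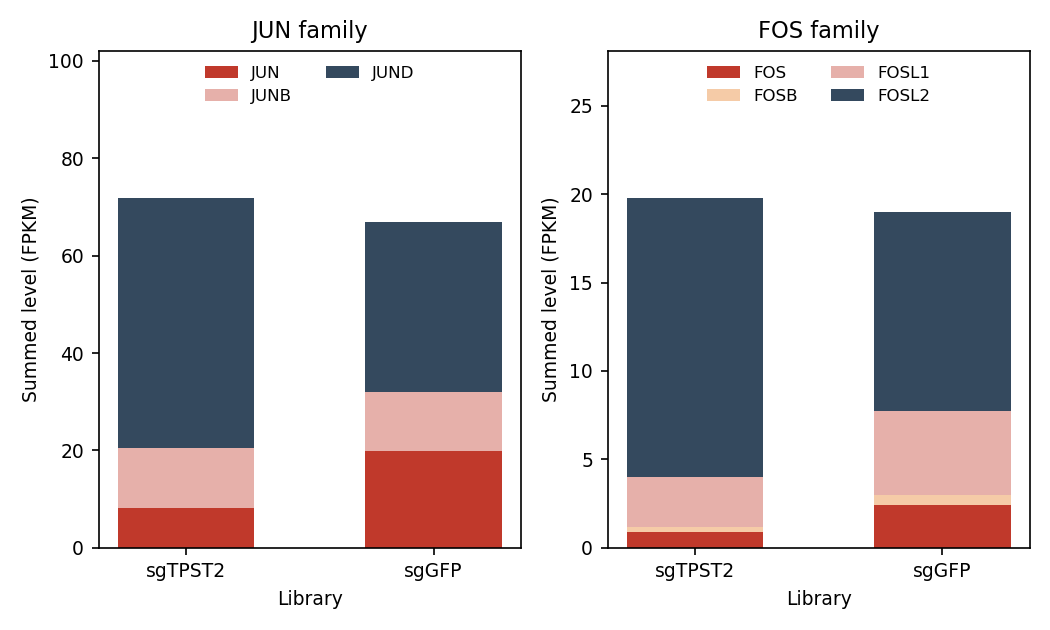
Summed level in FPKM of the JUN genes (left panel) and the FOS genes (right panel), with sgTPST2 left of sgGFP in each and 1 library per bar. The bars are nearly equal in height within a panel (71.9 FPKM in sgTPST2 and 66.9 FPKM in sgGFP on the left, 19.8 FPKM in sgTPST2 and 19.0 FPKM in sgGFP on the right), and the dark segments, JUND and FOSL2, are larger in sgTPST2.

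ATF3, EGR1 and KLF4 were all lower in sgTPST2. ATF3 encodes a stress-induced bZIP protein that pairs with JUN proteins and mostly represses. It stood at 1.12 FPKM in sgTPST2, against 2.47 FPKM in sgGFP, a log2 difference of -0.71 and a ratio of 0.455 (interval 0.322 to 0.639). EGR1 encodes a zinc finger factor that ERK signalling induces together with FOS. It stood at 0.501 FPKM in sgTPST2, against 0.954 FPKM in sgGFP, a ratio of 0.525 (interval 0.385 to 0.709, on about 71 and 119 fragments in sgTPST2 and sgGFP). KLF4 encodes a zinc finger factor of epithelial differentiation that is also an immediate early gene in some cells. It stood at 3.01 FPKM in sgTPST2, against 8.46 FPKM in sgGFP, a log2 difference of -1.24 and a ratio of 0.356 (interval 0.291 to 0.432). KLF4 had the largest difference of the 10 members, and 1.98% of all genes were as low or lower. FOS, ATF3 and EGR1 lay near 1 FPKM, where a log2 difference with 1 added is compressed.

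One motif is marked in capitals for each of these 3 genes below. The EGR1 stretch (chr5:138465349-138465448, plus strand) holds a pair of CArG boxes, the element bound by SRF, 105 and 83 bases before the start. A CArG box was found in 1.29% of 35116 RefSeq promoters of the same length and in EGR1 alone among the 8 members that the promoter table held. The ATF3 stretch (chr1:212565233-212565332, plus strand), from the more upstream of its RefSeq starts, holds TGACATCA 123 bases before that start. These 8 letters were found in 2.61% of promoters and, among the members, in JUN and ATF3 alone. FOS, EGR1 and KLF4, which were also lower in sgTPST2, have no such match, and a link of these letters to direction was not tested. The KLF4 stretch (chr9:107489880-107489979, minus strand) holds CACGTG, the E-box that MYC and MAX bind, 157 bases before the start, a motif found in 7.26% of promoters. EGR1 and KLF4 also hold TGACG, at 135 and 66 bases before the start in EGR1 and at 247 and 210 in KLF4.
EGR1: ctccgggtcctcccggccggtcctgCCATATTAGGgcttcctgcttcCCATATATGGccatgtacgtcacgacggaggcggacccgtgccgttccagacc
ATF3: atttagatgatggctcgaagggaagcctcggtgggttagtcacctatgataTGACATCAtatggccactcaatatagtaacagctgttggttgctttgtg
KLF4: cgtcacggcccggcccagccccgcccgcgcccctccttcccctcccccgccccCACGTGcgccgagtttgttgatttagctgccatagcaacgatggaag

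Across the 8 members with a RefSeq promoter (250 bases before and 50 after the start, both strands searched), TGANTCA was found in FOSL2 alone and in 7.71% of all promoters. The palindrome TGACGTCA was found in JUND alone and in 1.85% of all promoters. The shorter TGACG, which overlaps that palindrome, was found in 7 of the 8 (JUN, JUNB, JUND, FOS, FOSL2, EGR1 and KLF4) and in 24.6% of all promoters. TGACG and TGACATCA were added after the sequences had been read. The 7 genes with TGACG include JUND and FOSL2, which were higher, JUNB, which was level, and the others, which were lower. Whether these letters bear on direction was not tested. A match describes these letters and does not show that a factor binds there.

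MYC was the most abundant member in both libraries and differed little. It stood at 114 FPKM in sgTPST2, against 130 FPKM in sgGFP, a log2 difference of -0.20 and a ratio of 0.873 (interval 0.840 to 0.906). Of all genes, 22.5% were as low or lower. Of all protein-coding genes, 4.26% reached the level of MYC in sgTPST2 and 3.74% in sgGFP. In order of level, the members in sgTPST2 were MYC, JUND, FOSL2, JUNB, JUN, KLF4, FOSL1, ATF3, FOS and EGR1. In sgGFP they were MYC, JUND, JUN, JUNB, FOSL2, KLF4, FOSL1, ATF3, FOS and EGR1. JUN thus ranked 5 in sgTPST2 and 3 in sgGFP, and FOSL2 ranked 3 in sgTPST2 and 5 in sgGFP. Neighbours in these orders whose counting intervals overlapped were KLF4 with FOSL1 in sgTPST2, JUNB with FOSL2 in sgGFP, and ATF3 with FOS in both.

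**Figure D3:**
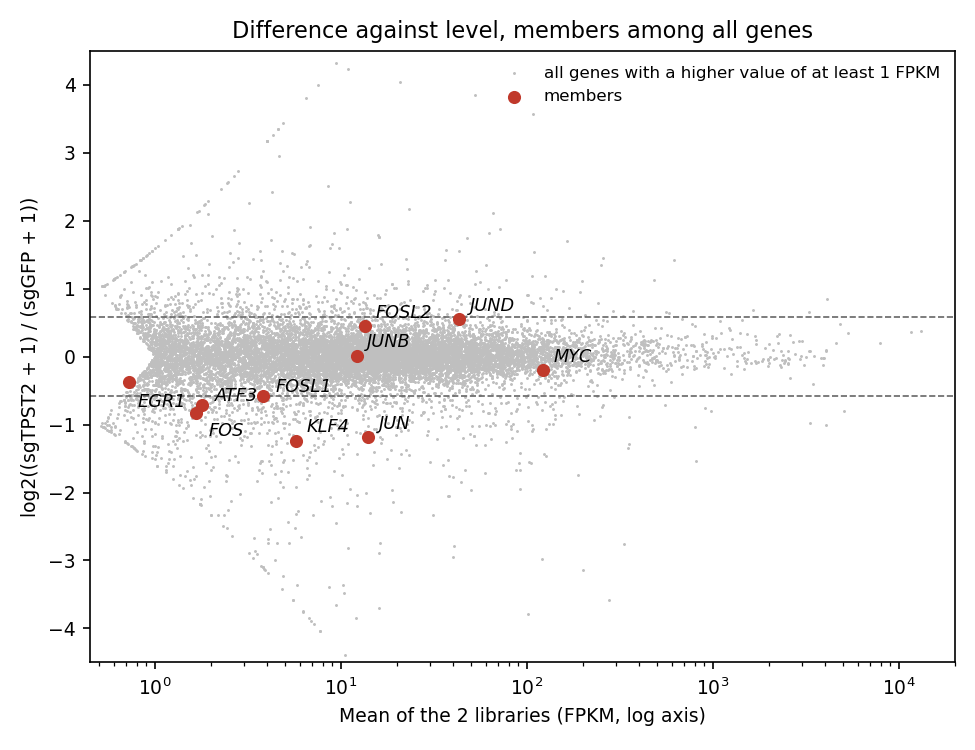
Log2 difference, log2((sgTPST2 + 1)/(sgGFP + 1)), against the mean level of the 2 libraries in FPKM on a log axis. Grey points are the genes with a value of at least 1 FPKM in 1 library, red points the 10 members, and dashed lines 1.5-fold; 40 genes beyond 4.5 on the log2 scale are not drawn. JUN and KLF4 lie furthest below the lower line, at -1.19 and -1.24, JUND lies just under the upper line at 0.55, and MYC lies at -0.20.

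For each member the 10 nearest protein-coding genes with at least 1 FPKM in 1 library (5 on each side) were taken. The median differences of these neighbours ranged from -0.21 around JUN to 0.12 around JUND. Of the 10 members, 5 lay below all of their neighbours. How often other genes lie below all of theirs was not computed, so this count does not set the members apart. Around KLF4, FOS, FOSL1, ATF3 and EGR1, 0 of the 10 neighbours were as low as the member. With 10 on each side, 1 of the 20 was as low as FOS or lower (RPS6KL1), and 1 of the 20 as low as EGR1 or lower (DNAJC18, at -0.75). JUN, JUNB, JUND, FOSL2 and MYC lay within the range of their neighbours. Around JUN, 8 of the 10 neighbours were lower by any amount and 2 of the 10 at least 1.5-fold lower, KANK4 and FGGY. KANK4, with a lower log2 difference than JUN itself (-2.74), stood at 0.311 FPKM in sgTPST2, against 7.77 FPKM in sgGFP. FGGY stood at 2.82 FPKM in sgTPST2, against 6.14 FPKM in sgGFP. Around JUND, IFI30 had a higher log2 difference than the member, with 42.9 FPKM in sgTPST2, against 21.5 FPKM in sgGFP. GDF15, also near JUND, went the other way, with 0.492 FPKM in sgTPST2, against 2.48 FPKM in sgGFP. Around FOSL2, YPEL5 had a higher log2 difference than the member, with 30.4 FPKM in sgTPST2, against 18.6 FPKM in sgGFP. The 5 genes before JUN on chromosome 1 were all lower, by less than 1.5-fold each. JDP2, which encodes a bZIP protein that represses AP-1, is among the neighbours of FOS on chromosome 14 and differed in the opposite direction, with 3.81 FPKM in sgTPST2 and 1.91 FPKM in sgGFP. The neighbours named here were picked after their values were seen. None of the 10 members lies on the short arm of chromosome 12, whose 102 well-expressed genes had a median difference of -0.88. JUNB and FOSL2 overlap other annotated genes. JUNB lies within the span of HOOK2 on the opposite strand, at 6.82 FPKM in sgTPST2 and 5.63 FPKM in sgGFP, and FOSL2 overlaps a pair of weakly expressed non-coding genes. Whether reads of these genes entered the values of JUNB and FOSL2 was not tested.

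**Figure D4:**
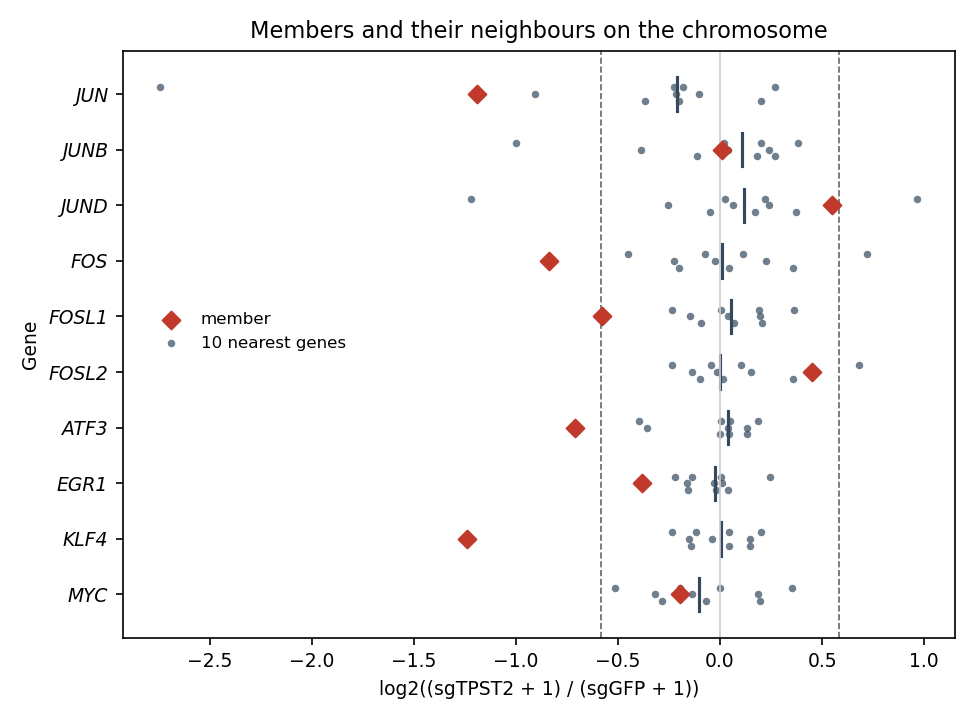
Log2 difference of each member (red diamond) and of the 10 nearest protein-coding genes with at least 1 FPKM in 1 library (blue points), with the median of those 10 as a bar and 1.5-fold as dashed lines. KLF4, FOS, FOSL1, ATF3 and EGR1 lie to the left of all their neighbours, and the medians range from -0.21 around JUN to 0.12 around JUND.

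Other bZIP genes of the AP-1 and MAF families were mostly level. Of 15 genes, 8 met the minimum, with a median of 0.06. Of these, 1 was at least 1.5-fold higher (JDP2, above) and 0 lower, next to 4.41% and 6.94% of all genes. ATF2, a partner of JUN that JNK and p38 phosphorylate, stood at 39.3 FPKM in sgTPST2 and 37.1 FPKM in sgGFP. The small MAF proteins, which lack an activation domain and pair with NRF2, were close to equal. MAFG, MAFK and MAFF stood at 8.99, 7.70 and 5.60 FPKM in sgTPST2, against 8.52, 7.39 and 6.07 FPKM in sgGFP.

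Other immediate early genes went both ways. Of 28 genes, 22 met the minimum, 2 were at least 1.5-fold lower and 2 higher, next to 6.94% and 4.41% of all genes. Counts this small do not set the list apart, and its median was 0.12. The lower genes were TIPARP, an ADP-ribosyltransferase induced by the aryl hydrocarbon receptor, and IER2, an immediate early nuclear protein. TIPARP stood at 15.8 FPKM in sgTPST2, against 31.0 FPKM in sgGFP, and IER2 at 17.2 FPKM in sgTPST2, against 26.9 FPKM in sgGFP. The higher genes were GADD45B, a stress-response gene, and CTGF, a secreted matricellular protein induced by YAP/TAZ and TGF-beta. GADD45B stood at 23.2 FPKM in sgTPST2, against 15.1 FPKM in sgGFP. CTGF, named after its values were seen, stood at 4.77 FPKM in sgTPST2, against 0.583 FPKM in sgGFP. SGK1, a serum- and glucocorticoid-induced kinase, was within 1.5-fold at 305 FPKM in sgTPST2 and 210 FPKM in sgGFP. EGR2, EGR3, EGR4, NR4A1, NR4A2 and NR4A3 were under 1 FPKM in both libraries.

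The signalling and transcription machinery upstream of the immediate early genes was present at similar levels. Of 21 genes, all 21 met the minimum, with a median of -0.07. Of these, 1 was at least 1.5-fold lower and 0 higher, next to 6.94% and 4.41% of all genes. SRF, which binds CArG boxes, stood at 10.6 FPKM in sgTPST2 and 12.1 FPKM in sgGFP. Its partner ELK3 stood at 4.32 FPKM in sgTPST2 and 6.07 FPKM in sgGFP. MEF2A, another factor bound at such promoters, stood at 4.12 FPKM in sgTPST2 and 5.83 FPKM in sgGFP. The JNK gene MAPK9 stood at 65.2 FPKM in sgTPST2 and 54.2 FPKM in sgGFP. The SRF coactivator gene MRTFA stood at 7.81 FPKM in sgTPST2 and 9.50 FPKM in sgGFP. The 1 lower gene was MAP3K1, a kinase upstream of JNK, named after its values were seen, at 1.71 FPKM in sgTPST2 and 3.26 FPKM in sgGFP. Transcript levels of kinases do not measure their activity.

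Textbook AP-1 targets were lower in part. Of 23 genes, 15 met the minimum, with a median of -0.58. Of these, 7 were at least 1.5-fold lower and 0 higher, next to 6.94% and 4.41% of all genes. By any amount, 13 of the 15 were lower and 2 higher. This list was chosen with earlier results of these data known, which included several of its lower genes. The collagenase gene MMP1 stood at 4.68 FPKM in sgTPST2, against 14.96 FPKM in sgGFP. PLAUR, the urokinase receptor, stood at 5.27 FPKM in sgTPST2, against 15.1 FPKM in sgGFP. The chemokine gene CXCL8 stood at 37.4 FPKM in sgTPST2, against 146 FPKM in sgGFP, and is the 1 gene of the list under q = 0.05 in the authors' deposited table (q = 0.0126). VEGFA stood at 20.8 FPKM in sgTPST2, against 33.5 FPKM in sgGFP. CXCL8, PLAUR and VEGFA also answer to NF-kappaB, hypoxia or other inputs. CCND1 and VIM, chosen after their values were seen, are the 2 genes that were higher, each by less than 1.5-fold. The cyclin gene CCND1 stood at 53.0 FPKM in sgTPST2 and 52.7 FPKM in sgGFP. The vimentin gene VIM stood at 3118 FPKM in sgTPST2 and 2661 FPKM in sgGFP.

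Around EGR1, the corepressors differed from each other. NAB1 and NAB2 bind EGR proteins and hold them in check, and NAB2 is itself an EGR1 target. NAB1 stood at 3.33 FPKM in sgTPST2, against 18.3 FPKM in sgGFP, a log2 difference of -2.16 and q = 0.0126 in the authors' deposited table. It lies on chromosome 2 between 190 and 230 Mb, a stretch whose 104 well-expressed genes had a median of -0.33. NAB2 stood at 8.40 FPKM in sgTPST2 and 8.14 FPKM in sgGFP. Of the 8 corepressors and targets, 6 met the minimum, and NAB1 was the 1 gene at least 1.5-fold apart. Over all genes, 6.94% were as much lower and 4.41% as much higher. The hyaluronan receptor gene CD44 stood at 259 FPKM in sgTPST2 and 316 FPKM in sgGFP, and the fatty acid synthase gene FASN at 44.5 FPKM in sgTPST2 and 55.2 FPKM in sgGFP. The ATF4-CHOP stress genes that can induce ATF3 were level, with 0 of 12 at least 1.5-fold apart and a median of -0.06. The CHOP gene DDIT3 stood at 9.73 FPKM in sgTPST2 and 11.4 FPKM in sgGFP, and ASNS, the asparagine synthetase gene, at 73.4 FPKM in sgTPST2 and 53.3 FPKM in sgGFP. The stress sensor gene ATF6 stood at 15.1 FPKM in sgTPST2 and 18.4 FPKM in sgGFP. DDIT4, an inhibitor of mTORC1 on chromosome 10 like KLF6 below, stood at 43.3 FPKM in sgTPST2 and 33.9 FPKM in sgGFP. Other KLF and SP factors were level too, with 0 of 10 at least 1.5-fold apart and a median of 0.05. KLF6, on chromosome 10, whose 346 well-expressed genes had a median of 0.20, stood at 47.8 FPKM in sgTPST2 and 37.6 FPKM in sgGFP. KLF2, KLF3 and KLF16 stood at 8.97, 7.43 and 9.77 FPKM in sgTPST2, against 7.87, 8.42 and 8.29 FPKM in sgGFP.

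The MYC network showed small differences, with MXD3, MXD4 and MXI1 on the higher side. Of 19 genes, 18 met the minimum, with a median of 0.04. Of these, 1 was at least 1.5-fold higher and 0 lower, next to 4.41% and 6.94% of all genes. MXD3, which encodes a MAX partner that represses MYC targets, stood at 27.0 FPKM in sgTPST2, against 15.2 FPKM in sgGFP. MXD4 and MXI1, of the same repressor family, stood at 19.6 and 9.21 FPKM in sgTPST2, against 14.8 and 6.70 FPKM in sgGFP, within 1.5-fold. MXI1 lies on chromosome 10, whose 346 well-expressed genes had a median of 0.20. MAX itself stood at 35.1 FPKM in sgTPST2 and 34.0 FPKM in sgGFP. FBXW7, part of the ubiquitin ligase that degrades MYC, stood at 12.5 FPKM in sgTPST2 and 16.2 FPKM in sgGFP. The 37 textbook MYC targets of ribosome biogenesis and growth had a median of -0.09. Among them, 2 were at least 1.5-fold lower and 0 higher, next to 6.94% and 4.41% of all genes. Of the 37, 26 were lower and 11 higher by any amount. The lower genes were POLR1B, a subunit of RNA polymerase I, at 23.4 FPKM in sgTPST2, against 37.4 FPKM in sgGFP, and NOP58, a small nucleolar RNA-binding protein on the same stretch of chromosome 2 as NAB1, at 91.6 FPKM in sgTPST2, against 138 FPKM in sgGFP. The hexokinase gene HK2 stood at 6.16 FPKM in sgTPST2 and 8.77 FPKM in sgGFP, and RRP9, a nucleolar protein of rRNA processing, at 30.3 FPKM in sgTPST2 and 39.3 FPKM in sgGFP.

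Transcripts for the proteins that govern decay of AU-rich mRNAs, which include those of FOS and MYC, were all within 1.5-fold. All 6 met the minimum, with a median of 0.04. Of these, 0 were at least 1.5-fold lower and 0 higher, next to 6.94% and 4.41% of all genes. With so few genes, these counts do not set the list apart. ZFP36L1 stood at 9.97 FPKM in sgTPST2 and 8.42 FPKM in sgGFP. KHSRP, ELAVL1 and HNRNPD stood at 88.3, 54.0 and 19.2 FPKM in sgTPST2, against 86.3, 53.9 and 22.4 FPKM in sgGFP. Of 7 heat shock genes, 5 met the minimum, with 0 at least 1.5-fold apart and a median of 0.00. Next to the same shares of all genes, this count does not set the heat shock list apart either. The stress-inducible HSPA1A is listed at 0 in both libraries and HSPA1B at 0.00892 FPKM in sgTPST2 and 0 in sgGFP, so these values do not measure stress at harvest. HSPA8, HSPH1 and HSPB1 stood at 2533, 129 and 123 FPKM in sgTPST2, against 2597, 128 and 120 FPKM in sgGFP. HSP90AA1 stood at 520 FPKM in sgTPST2 and 673 FPKM in sgGFP. The labels do not give the time since feeding or the confluence of the cultures, to which FOS, JUN and EGR1 are known to be sensitive.

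**Figure D5:**
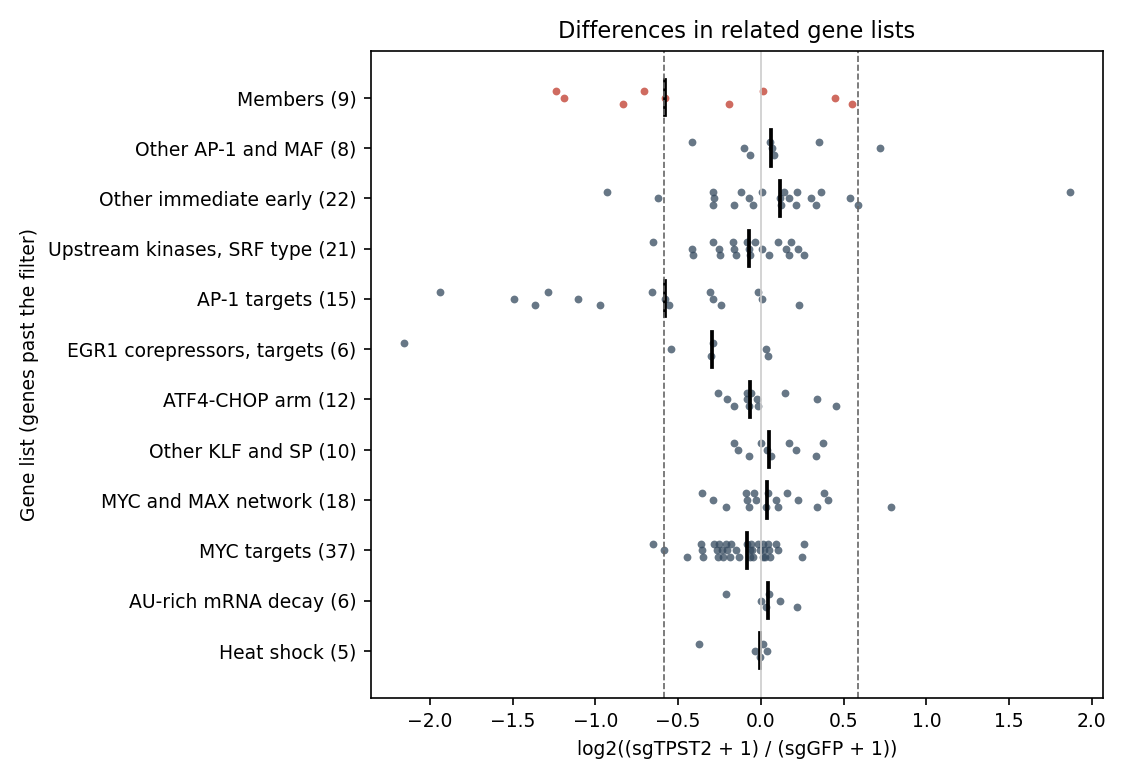
Log2 difference of each gene that met the minimum of 1 FPKM, by list, with the number of genes in brackets, the median as a bar and 1.5-fold as dashed lines. The members (red) and the AP-1 targets have medians of -0.58 each, and the medians of the other lists lie between -0.30 and 0.12.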

How the data were processed

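Per the labels' protocols, libraries were made from column-purified RNA of 2 cultures with a stranded total RNA kit. The submitters' processing notes name STAR, Cuffdiff and the build hg38, with no version; how strand was handled in counting is not stated there. The deposited table holds 1 value per gene and culture, read as FPKM because Cuffdiff reports that unit (the header names none), with the authors' p-value and q-value. The authors' deposited log2 fold change equals log2((sgTPST2 + 1)/(sgGFP + 1)) to within 2.11e-15. All 58698 gene IDs and symbols match GENCODE 29, whose coordinates are printed.

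Here, in Python 3.11.15, genes entered lists and counts if 1 of their 2 values reached 1 FPKM. Fragments per value came from steps between low values of single-transcript genes over 1500 bp (93.0% of 776 values in sgTPST2 and 91.5% of 837 in sgGFP lay within 0.1 of a whole number; step and offset were fitted on these values). Fragments used the length of the gene's coding transcript where GENCODE's basic set has 1, and 1 kb otherwise. Each member given 1 kb has a longer coding transcript. For such a gene, member or not, fragments may be understated and intervals too wide. Some non-coding genes among the 13420, such as AC104695.3, are shorter than 1 kb, which overstates their fragments and narrows their intervals. Poisson and exact binomial 95% intervals cover counting error only, and the Poisson ones were also computed for all 13420 genes. Steps and counts were tested on simulated data. Named genes were all members and, of each list, the 4 with the largest absolute difference at 5 FPKM or more, with SRF, MAX and FOSB. With 2 libraries a pattern is 1 difference, so no gene is named for likeness. Members and lists were chosen with earlier results of these data known. Alternatives were a pseudocount of 0.1, a minimum of 5 FPKM or none, 3 rescalings, a 2-fold threshold and 10 neighbours on each side.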

Additional observations from a re-analysis of the deposited data

How the results depend on the processing

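No paired analysis was possible because there is 1 library per group, and no replicate could be left out. Of 278 values recomputed under the alternatives, 264 stayed within their bounds (a count by 1.5 times, a member within its counting interval, a median within the order-statistic interval of its list), 14 moved, and no value past 1.5-fold changed sign. For short lists these bounds are wide: the members' median of -0.58 counts as unmoved at -0.09 with a minimum of 5 FPKM. The rescalings, 138 of the 278 values, could move little, because the values summed to 1000942 FPKM in sgTPST2 and 1010078 FPKM in sgGFP. Of the medians near 0, 3 changed sign: heat shock genes to 0.01 at the same sum, and the neighbours of FOS to -0.10 and of FOSL2 to -0.03 with 10 on each side. With a pseudocount of 0.1, 5 of the 9 members were lower, next to 9.14% of all genes lower and 6.92% higher under that setting. The differences were -1.27 for JUN, -1.31 for FOS, -0.81 for EGR1, -1.07 for ATF3 and -1.46 for KLF4, which follows from the smaller constant. With that constant, 2 other AP-1 and MAF genes were higher and 2 of the EGR1 corepressors and targets lower. With a minimum of 5 FPKM, fewer genes entered, and 5.51% of all genes were lower and 3.43% higher. There, 2 members were lower with a median of -0.09, and 4 AP-1 targets and 0 upstream genes were lower. Of the other AP-1 and MAF genes 0 were higher, and of the other immediate early genes 1. At 2-fold, 2 members were lower, next to 2.93% of all genes. With both columns scaled to the same sum, 1 MYC target was lower, and this was the 1 value that moved among 138 under the 3 rescalings. The median of all genes moved by at most 0.01 there. Depth limits FOS, ATF3 and EGR1 most.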

Other observations

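Further AP-1 targets, named after their values were seen, were lower in sgTPST2 at levels near or under 2 FPKM. The interleukin genes IL1A and IL1B stood at 0.0752 and 0.471 FPKM in sgTPST2, against 1.11 and 2.16 FPKM in sgGFP. The stromelysin gene MMP3 stood at 0.263 FPKM in sgTPST2, against 2.08 FPKM in sgGFP, and lies next to MMP1 on chromosome 11. HMGA1 and TIMP1, both abundant, lay just inside 1.5-fold, with HMGA1 at 140 FPKM in sgTPST2, against 206 FPKM in sgGFP, and TIMP1 at 190 FPKM in sgTPST2, against 284 FPKM in sgGFP. CYR61, a secreted immediate early protein that is a YAP/TAZ target like CTGF, stood at 11.3 FPKM in sgTPST2 and 8.58 FPKM in sgGFP.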
